A study of Mus musculus with 9 samples.

Results

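The let-7 and miR-98 family was followed through small RNA libraries of the mouse hippocampus. Its members were taken by name, as mmu-let-7a-5p, mmu-let-7b-5p, mmu-let-7c-5p, mmu-let-7d-5p, mmu-let-7e-5p, mmu-let-7f-5p, mmu-let-7g-5p, mmu-let-7i-5p and mmu-miR-98-5p, which made 9 of the 1448 mature miRNAs counted. The mice were C57BL/6J and formed 3 groups with 3 libraries in each. The saline group received 0.9% saline. The LPS group received a single intraperitoneal dose of 1 mg/kg lipopolysaccharide (LPS), a bacterial endotoxin that sets off inflammation, together with a volume of saline that the sample labels give as 0.12%. The LPS + GAS group received the same dose of LPS and 100 mg/kg of gastrodin (GAS), a phenolic glucoside, which the labels place 1 h after LPS. Elsewhere the study's methods describe a concurrent injection, so the order of the injections is not settled. Each library had 10119758 to 11457656 reads on miRNAs.

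The let-7 family is among the oldest and best conserved groups of animal miRNAs. Its mature 5p strands carry the same seed, the stretch near the 5′ end that pairs with target mRNAs, so the members can act on largely the same targets, among them Hmga2, Ras genes, Myc and Lin28. In stem cells the protein LIN28 binds the loop of many let-7 precursors and blocks their maturation, and mature let-7 builds up as neurons differentiate and stays abundant in the adult brain.

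The 9 mature sequences are shown because their likeness decides how they can be told apart by sequencing. They are as listed in the deposited table, they were identical to the RefSeq entries, and each was 22 bases long. Capitals mark the seed (bases 2 to 8).
mmu-let-7a-5p: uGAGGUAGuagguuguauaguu
mmu-let-7b-5p: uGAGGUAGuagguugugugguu
mmu-let-7c-5p: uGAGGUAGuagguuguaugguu
mmu-let-7d-5p: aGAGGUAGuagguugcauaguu
mmu-let-7e-5p: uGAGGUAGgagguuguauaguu
mmu-let-7f-5p: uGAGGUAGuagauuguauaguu
mmu-let-7g-5p: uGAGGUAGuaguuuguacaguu
mmu-let-7i-5p: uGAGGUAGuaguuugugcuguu
mmu-miR-98-5p: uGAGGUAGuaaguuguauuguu

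The seed was the same in all 9 members, and 14 of the 22 positions held the same base in all of them. Counting bases of the member named first from 1 at its 5′ end, let-7a-5p and let-7c-5p differed by A19G alone, let-7b-5p and let-7c-5p by G17A, let-7a-5p and let-7e-5p by U9G, and let-7a-5p and let-7f-5p by G12A. In each of these 4 pairs a single wrong base is enough to move a read from one member to the other. How the authors' counting treated mismatched or shortened reads was not given in the sources used here, so levels of these 5 members are uncertain to that extent.

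Among the 1448 miRNAs, 10 had this seed. The tenth was let-7k, a sequence of 19 bases that over its length differed from let-7b-5p by U9G and from let-7e-5p by A17G and A19G. It is printed to show that overlap.
mmu-let-7k: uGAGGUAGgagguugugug
Let-7k had 159 to 646 reads in the 9 libraries, against 14357 to 22429 for miR-98-5p, the least abundant member. Let-7j, whose seed differs in its last base, had 0 reads in all 9 libraries.

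The members come from 12 hairpins in the mouse genome (GRCm38), several of them in clusters. On the minus strand of chromosome 13, Mirlet7d (chr13:48536012-48536114), Mirlet7f-1 (chr13:48537829-48537917) and Mirlet7a-1 (chr13:48538179-48538272) lay in an exon of the lincRNA 6720427I07Rik. Mirlet7c-2 (chr15:85706603-85706697) and Mirlet7b (chr15:85707319-85707403) lay in an exon of the noncoding transcript Lncppara, on the plus strand. Mirlet7f-2 (chrX:151912346-151912428) and Mir98 (chrX:151913214-151913321) lay in introns of the ubiquitin ligase gene Huwe1. The other hairpins stood apart from each other. Mirlet7e (chr17:17830352-17830444) lay in an intron of Spaca6, Mirlet7g (chr9:106178840-106178927) in an intron of Wdr82 and Mirlet7i (chr10:122985640-122985724) in an exon of the transcribed pseudogene D630033A02Rik. Mirlet7c-1 (chr16:77599657-77599750) and Mirlet7a-2 (chr9:41536716-41536811) lay in introns of the noncoding transcripts Mir99ahg and 3110039I08Rik. Because let-7a-5p, let-7c-5p and let-7f-5p each have 2 hairpins with the same 5p sequence, their reads cannot be split between loci.

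The hairpins of let-7d and let-7i, from RefSeq (GRCm38.p6), are shown with both arms in capitals, as examples of precursors with reads on both arms. Let-7e, which is not shown, had more 3p reads (1526 to 2432 a library) than let-7i (831 to 1651).
Mirlet7d: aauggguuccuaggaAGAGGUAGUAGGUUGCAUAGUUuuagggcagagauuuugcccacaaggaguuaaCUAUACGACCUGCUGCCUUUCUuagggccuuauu
Mirlet7i: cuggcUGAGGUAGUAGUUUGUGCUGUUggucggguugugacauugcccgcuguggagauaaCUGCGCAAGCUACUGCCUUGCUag
Between the arms both hairpins hold GGAG, the letters that LIN28 is known to recognise in many let-7 loops. A search for GGAG on the transcript strand found it between the arms in 8 of the 11 family hairpins searched. The exceptions among these 11 were Mirlet7b, Mirlet7c-2 and Mir98, and Mirlet7a-2 was not included in the search. Of 50 other mouse hairpins with 23 to 36 bases between the arms, the range seen in the family, 14.0% held these letters. Such a match describes the sequence and is not a site.

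Together the 9 members took 20.6% to 28.0% of all miRNA reads. Their share was 28.0%, 21.3% and 26.7% with saline (replicates 1 to 3), a mean of 25.3% ± 3.60 (SD, n = 3). In the LPS group it was 25.4%, 20.6% and 24.1% (23.3% ± 2.49), and in the LPS + GAS group 22.1%, 22.2% and 24.8% (23.0% ± 1.51). The groups overlapped throughout, and the widest gap lay within the saline group. Saline replicate 2 and LPS replicate 2 were the lowest libraries of their groups, as the plot of read shares by library shows.

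**Figure D1:**
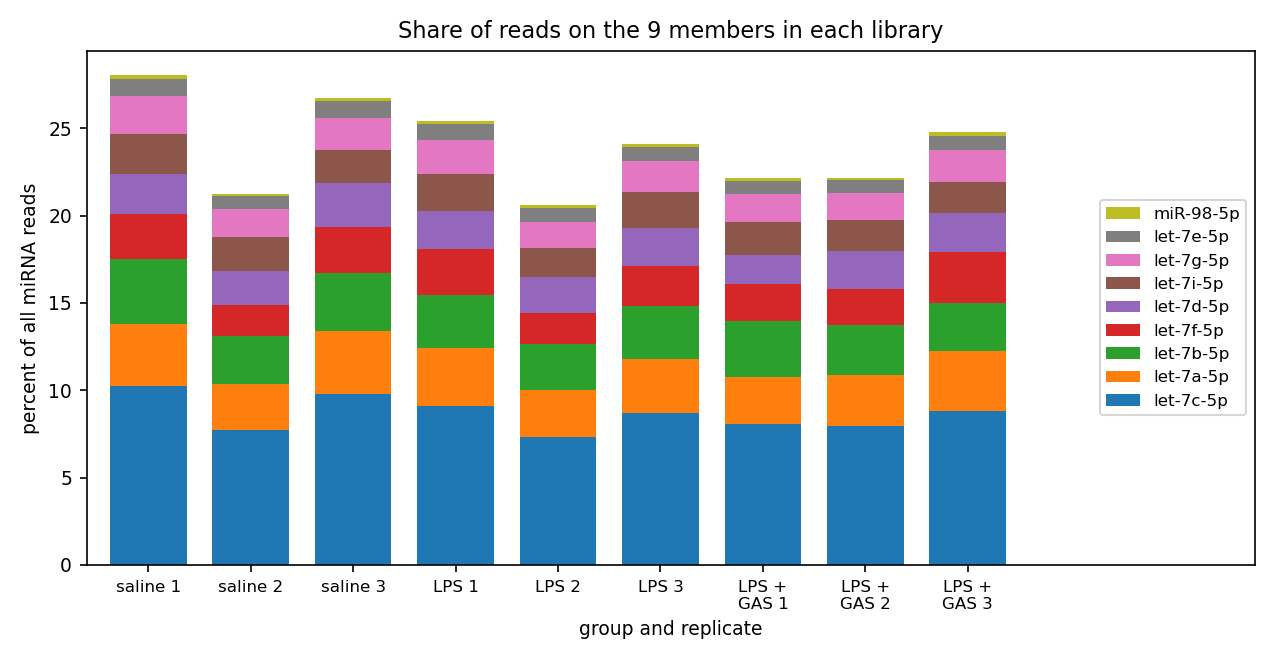
Percent of all miRNA reads on each of the 9 members (stacked colours) in each of the 9 libraries, by group and replicate. The stacks reach 20.6% to 28.0%, with saline replicate 2 (21.3%) and LPS replicate 2 (20.6%) the lowest, and let-7c-5p is the widest band in every library.

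Levels are given below as CPM, reads relative to the library total after TMM scaling, in which edgeR takes a factor for each library from the bulk of its miRNAs. All members have the same length, so that CPM needs no correction for length between them. How evenly the library steps capture different sequences was not tested, and the order below is one of reads. Let-7c-5p was the most abundant, at a mean of 87171 CPM over the 9 libraries, and the third most abundant of all miRNAs tested. Let-7a-5p (31282 CPM) and let-7b-5p (30741 CPM) followed, and then let-7f-5p (23309 CPM), let-7d-5p (21369 CPM), let-7i-5p (19600 CPM) and let-7g-5p (17727 CPM). Let-7e-5p (8311 CPM) and miR-98-5p (1717 CPM) closed the order.

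The order had clear steps at its ends, while in its middle no neighbours kept the same sign in all 9 libraries. Within libraries let-7c-5p stood above let-7a-5p by 1.48 ± 0.064 on the log2 scale (SD, n = 9), and did so in 9 of 9 libraries. At the other end, let-7g-5p stood above let-7e-5p by 1.09 ± 0.13 and let-7e-5p above miR-98-5p by 2.28 ± 0.14, again in 9 of 9 libraries each. Between these steps, let-7a-5p and let-7b-5p differed by 0.020 ± 0.16, let-7f-5p and let-7d-5p by 0.10 ± 0.22, and let-7d-5p and let-7i-5p by 0.13 ± 0.21, each with the same sign in only 6 of 9 libraries. These neighbours did not differ beyond their spread. Let-7b-5p stood above let-7f-5p by 0.42 ± 0.24 and let-7i-5p above let-7g-5p by 0.15 ± 0.11, each in 8 of 9 libraries.

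**Figure D2:**
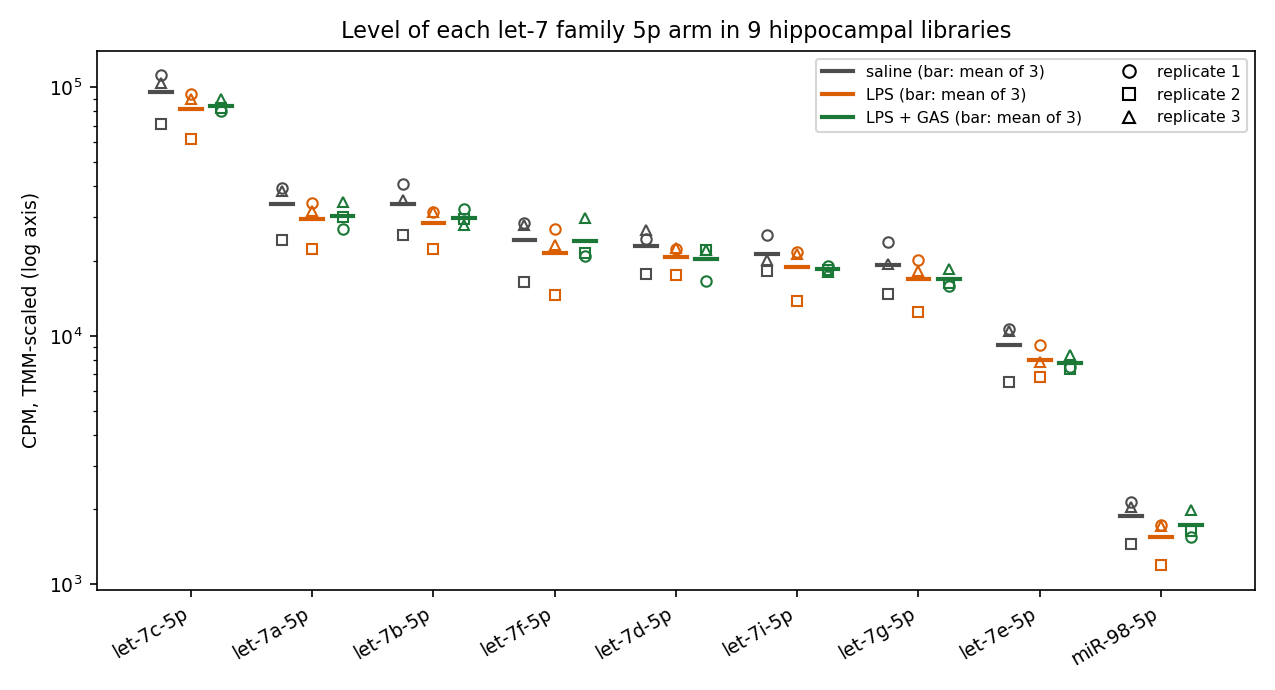
CPM of the 9 members (log axis) in each library, with grey, orange and green for the saline, LPS and LPS + GAS groups, a symbol for each replicate and a bar for the mean of 3. For every member the squares of saline replicate 2 and LPS replicate 2 lie lowest in their groups, and the 3 groups overlap.

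Let-7c-5p, the leading member, had 111878, 70910 and 104352 CPM with saline (replicates 1 to 3), 93617, 61767 and 89435 CPM with LPS and 80534, 82596 and 89448 CPM with LPS + GAS. Its lowest and highest LPS + GAS libraries lay closer together than those of the saline or LPS group. Its mean was 95713 ± 21807 CPM (SD, n = 3) with saline, 81606 ± 17308 CPM with LPS and 84193 ± 4667 CPM with LPS + GAS. MiR-98-5p, the least abundant member, had 2142, 1452 and 2052 CPM with saline, 1724, 1193 and 1715 CPM with LPS, and 1551, 1632 and 1995 CPM with LPS + GAS. The same libraries were thus at the bottom of the saline and LPS groups for the most and for the least abundant member. Let-7f-5p, encoded on chromosomes 13 and X, had 28377, 16442 and 28000 CPM with saline, 27010, 14583 and 23240 CPM with LPS, and 20871, 21583 and 29678 CPM with LPS + GAS.

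On CPM, saline replicate 2 was the lowest of its group for 9 of the 9 members and so was LPS replicate 2. On reads without scaling each was lowest for 8 of 9. These libraries also had the highest TMM factors, 1.086 and 1.19, against 0.9138 to 1.001 in the other 7. Counting error was small beside these gaps, at most 0.835% of the reads of miR-98-5p in its shallowest library. Over the 9 libraries the SD of log2 CPM had a median of 0.26 among the members, from 0.23 to 0.36, against a median of 0.23 among 73 other miRNAs with at least 1000 CPM.

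No member passed the test between LPS and saline. Calls came from edgeR's quasi-likelihood test, its p-values adjusted over 628 miRNAs by the Benjamini-Hochberg method. They required an adjusted p no higher than 0.05 and a log2 fold change of 1 or more in either direction. This was reached by 0 of the 9 members, and by 0.00% of the miRNAs tested. At an unadjusted p under 0.05 the count was 0 of 9 (2.39% of all tested), and 0 of 9 had groups that did not overlap (3.82% of all). DESeq2 and voom also called 0 members.

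All 9 fitted log2 fold changes of LPS against saline lay below 0, as did 57.5% of all miRNAs tested. They ran from -0.29 (SE 0.22) for miR-98-5p to -0.15 (SE 0.20) for let-7d-5p, with a median of -0.21 beside a median of -0.04 over all tested miRNAs. For let-7c-5p the value was -0.23 (SE 0.21), for let-7b-5p -0.25 (SE 0.21) and for let-7f-5p -0.17 (SE 0.28). Each member's adjusted p was 0.992 by edgeR, and the members shared the libraries that were low, so that their common sign is not 9 observations. The median was -0.013 without LPS replicate 2 and -0.048 without saline replicate 1, with 6 of 9 members below 0 in both cases. It was -0.35 without saline replicate 2 and -0.33 without LPS replicate 1. With saline replicate 2 and LPS replicate 2 both left out, a setting chosen after the values were seen, it was -0.19 with 9 of 9 below 0.

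Between LPS + GAS and LPS the members lay on both sides of 0. Of the 9, 5 had a log2 fold change above 0 and 4 one below 0 (49.4% of all tested), with a median of 0.05 and a range from -0.04 for let-7e-5p to 0.16 (SE 0.22) for miR-98-5p. The edgeR test called 0 of the 9 (0.00% of all tested), 0 reached an unadjusted p under 0.05 (3.66% of all) and 0 had groups without overlap (8.60% of all). DESeq2 and voom called 0 as well. Let-7f-5p had 0.15 (SE 0.28). The sign rested on single libraries. Without LPS replicate 2, 8 of the 9 members lay below 0 with a median of -0.11, and without LPS replicate 1 this held for 0 of 9, with a median of 0.15.

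The LPS + GAS group was also set against saline, with the same saline libraries that served for LPS. All 9 members lay below 0 (55.9% of all tested), from -0.25 (SE 0.21) for let-7e-5p to -0.01 (SE 0.28) for let-7f-5p, with a median of -0.18. By edgeR 0 of the 9 members were called (0.159% of all tested), with an adjusted p of at least 0.998 for each. At an unadjusted p under 0.05 there were 0 (3.34% of all), and 0 had groups that did not overlap (7.32% of all). DESeq2 and voom called 0 members. Without saline replicate 1 the median was 0.01, with 4 of 9 below 0. Without saline replicate 2 it was -0.29, with 9 of 9 below 0, and let-7e-5p (-0.39, SE 0.16) reached an unadjusted p of 0.039 by edgeR. With saline replicate 2 and LPS replicate 2 both left out it was again -0.29, and let-7c-5p (-0.31, SE 0.11) and let-7e-5p (-0.40, SE 0.13) reached unadjusted p-values of 0.024 and 0.018. The adjusted p-values of the members by edgeR were then 0.995 and 0.992.

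**Figure D3:**
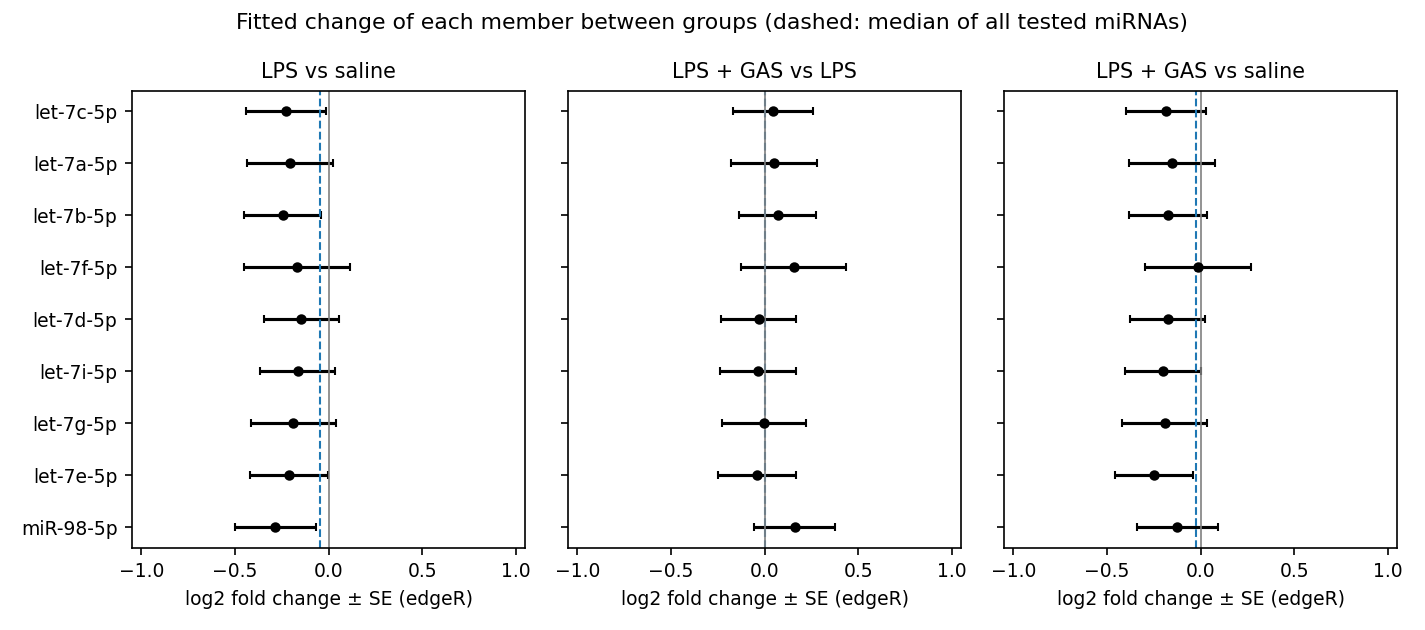
Fitted log2 fold change ± SE (horizontal axis) of the 9 members in the 3 comparisons between groups, from edgeR over 9 libraries. The members lie between -0.29 and 0.16, close to one another within a comparison, and the dashed line marks the median of all 628 miRNAs tested.

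Within the family, let-7c-5p made up 35.7% to 36.7% of the family's reads in every library, although the family's own share of all reads ranged from 20.6% to 28.0%. Let-7a-5p made up 12.1% to 13.8%, let-7g-5p 6.82% to 7.77% and miR-98-5p 0.659% to 0.795%. Let-7f-5p varied more, from 8.40% in saline replicate 2 to 11.8% in LPS + GAS replicate 3, and let-7i-5p ranged from 7.09% to 9.36%. These proportions come from ratios within a library and do not depend on the scaling between libraries.

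LPS + GAS replicate 3 had the highest proportion of let-7f-5p and the lowest of let-7b-5p, at 11.1%. LPS + GAS replicate 1 had the highest of let-7b-5p, at 14.6%, and the lowest of let-7d-5p, at 7.53%. The proportions of let-7b-5p in the LPS + GAS group, 14.6%, 12.9% and 11.1%, therefore covered the whole range of the other groups.

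Pairs of members were compared by the SD of their log2 ratio over the 9 libraries. The closest were let-7a-5p and let-7c-5p (0.064), let-7c-5p and let-7g-5p (0.066) and let-7a-5p and miR-98-5p (0.075), of which the first pair differs by a single base. The furthest apart were let-7f-5p and let-7i-5p (0.25), let-7b-5p and let-7f-5p (0.24) and let-7d-5p and let-7f-5p (0.22), although the hairpins of let-7d and let-7f-1 lie 1715 bp apart. The median SD was 0.10 over the 4 pairs that differ by 1 base and 0.17 over the 9 pairs that differ by 4. Over the 5 pairs with hairpins in one cluster it was 0.12, and over the other 31 pairs 0.14. Pairs share members and libraries, so these medians are descriptions.

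The opposite strand of each precursor, the 3p arm, is usually degraded after Dicer cleavage, and its reads were not used to choose the members. Of 12 miRNAs for 3p arms of the family, 9 had enough reads to be tested. Let-7d-3p was the most abundant, with 5506 to 10228 reads, followed by let-7e-3p with 1526 to 2432 and let-7i-3p with 831 to 1651. The 3p arms of let-7a-1 and let-7c-2 have the same sequence and the same reads in each library (541 to 920), so that these reads stand in both. Let-7b-3p had 0 to 3 reads and let-7g-3p 1 to 11, beside 269437 to 426503 reads on let-7b-5p and 149782 to 249571 on let-7g-5p.

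The most abundant of these 3p arms is shown, and its seed again stands in capitals.
mmu-let-7d-3p: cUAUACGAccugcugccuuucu
Of the reads on both let-7d arms, 2.32%, 4.74% and 2.57% were 3p with saline, 3.94%, 4.50% and 3.28% with LPS and 5.42%, 3.54% and 2.33% with LPS + GAS. Saline replicate 2, LPS replicate 2 and LPS + GAS replicate 1, where let-7d-5p was lowest, had the highest 3p shares of their groups. The ratio of 5p to 3p reads ranged from 17.5 to 42.1 for let-7d, from 33.1 to 61.4 for let-7e, from 125 to 320 for let-7i and from 299 to 807 for miR-98.

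**Figure D4:**
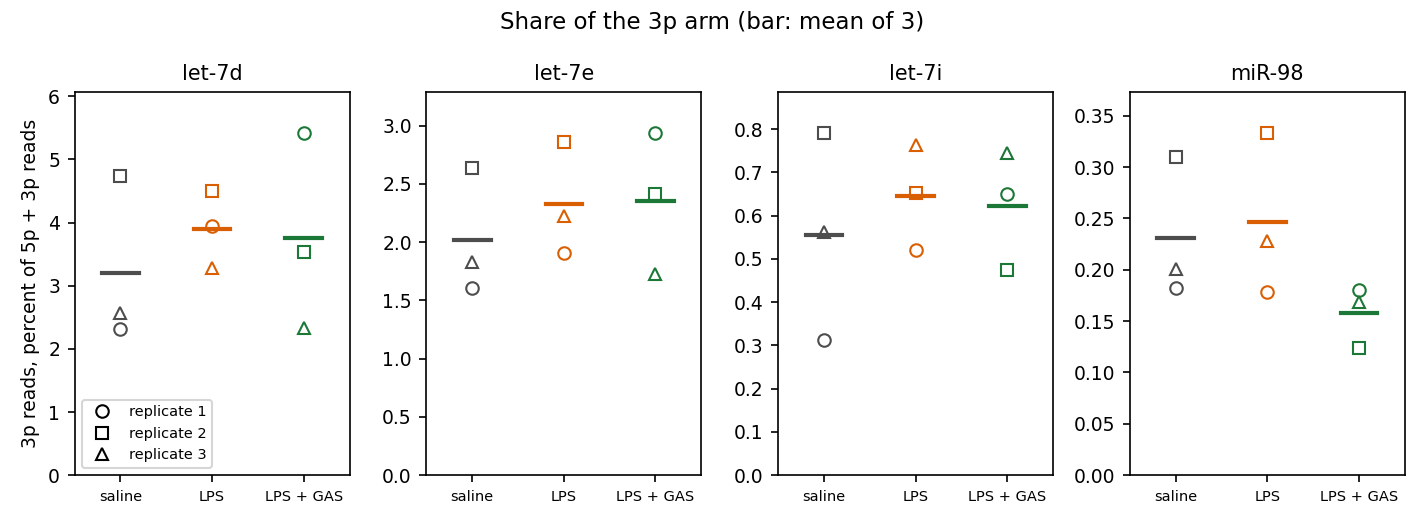
3p reads as a percent of 5p and 3p reads for let-7d, let-7e, let-7i and miR-98 (each vertical axis starts at 0 and has its own scale), by group, with a symbol for each replicate and a bar for the mean of 3. The share is highest for let-7d (2.32% to 5.42%) and lowest for miR-98 (0.124% to 0.333%). The miR-98 shares with LPS + GAS lie below those with saline, at the closest 0.180% against 0.182%. They rest on 20 to 51 3p reads a library.

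Ratios of the arms were compared between groups by exact two-sided permutation tests over libraries, 12 tests in all, which with 3 libraries against 3 cannot give a p below 0.1. For miR-98 the ratio of 5p to 3p was 547, 322 and 497 with saline, 559, 299 and 437 with LPS, and 554, 807 and 592 with LPS + GAS. The LPS + GAS libraries all lay above the saline libraries, but at the closest only by 554 against 547. The group means differed by 0.53 on the log2 scale, with an exact permutation p of 0.1 (0.873 after Benjamini-Hochberg adjustment). The miR-98-3p counts behind these ratios were only 20 to 51 reads a library. None of the other 11 comparisons was without overlap, and their adjusted p-values from the exact test were 0.873 or 1. In edgeR miR-98-3p had a log2 fold change of -0.61 (SE 0.24, adjusted p 0.998) for LPS + GAS against saline, where miR-98-5p had -0.13 (SE 0.22). For LPS against saline let-7d-3p had 0.21 (SE 0.24), where let-7d-5p had -0.15 (SE 0.20). Of the 9 tested 3p arms, 0 were called in any comparison.

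Some let-7 hairpins lie beside precursors of the miR-99/100 and miR-125 families. Mir99a is 657 bp from Mirlet7c-1, Mir125a 368 bp from Mirlet7e, and Mir100 5212 bp from Mirlet7a-2. For LPS against saline, miR-99a-5p had a log2 fold change of -0.19 (SE 0.15), miR-99b-5p -0.19 (SE 0.28), miR-100-5p -0.17 (SE 0.15), miR-125a-5p -0.04 (SE 0.17) and miR-125b-5p 0.29 (SE 0.21). None of these 5 was called by edgeR in any comparison.

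The deposited table gives a second whole number for each miRNA and library, named exp, whose making is not stated. It was never above the read count, equal to it for most miRNAs with few reads, and fell ever further behind it as reads increased. Let-7c-5p had 4.88 to 6.92 reads per unit of exp and miR-98-5p 1.09 to 1.14. The family therefore spanned much less on exp, where let-7c-5p was 9.79 ± 1.10 times miR-98-5p (SD, n = 9), than on reads, where it was 50.8 ± 2.68 times. The members followed the same curve of reads per exp as other miRNAs with like counts, within -0.023 to 0.039 on the log2 scale. Their order on exp therefore repeats their order on reads and is no separate check of it.

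**Figure D5:**
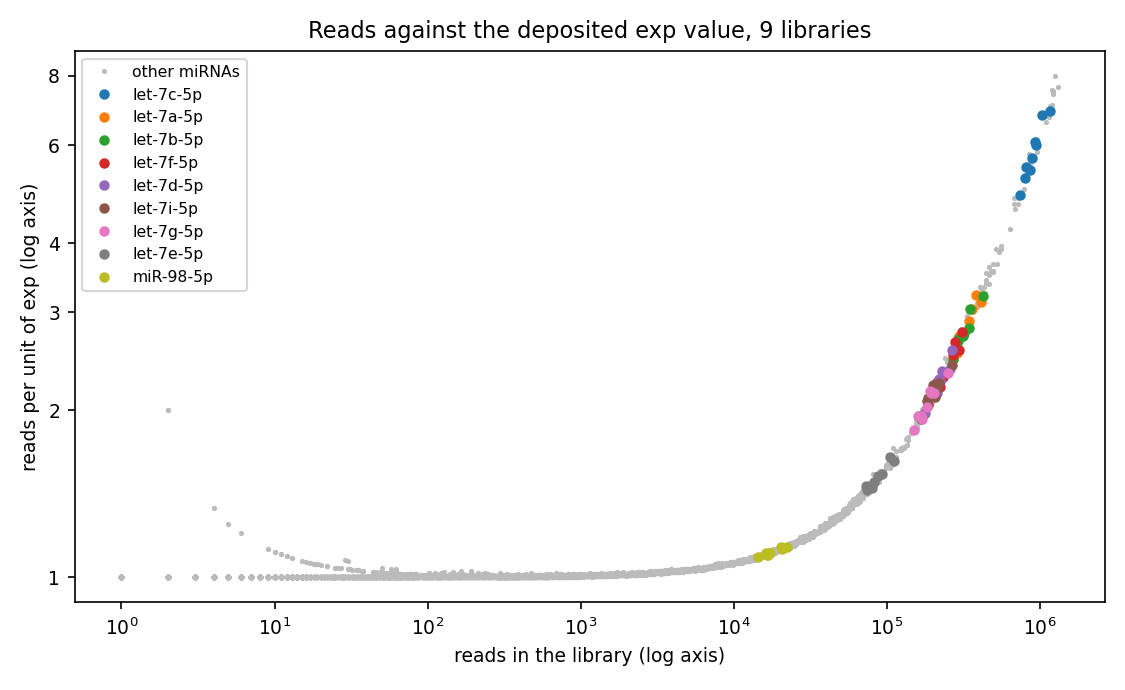
Reads per unit of exp (vertical, log axis) against reads (horizontal, log axis) for all miRNAs with reads in the 9 libraries, with members in colour and the others in grey. The members lie on the grey curve, from 1.09 for miR-98-5p to 6.92 for let-7c-5p.

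On exp values, which fell further behind the read counts as reads increased, the members moved less between groups. Like the order, these changes on exp are no separate check of those on reads. The family's share was 19.8% ± 1.49 with saline, 19.2% ± 1.41 with LPS and 19.0% ± 0.511 with LPS + GAS (SD, n = 3). The median log2 fold change of LPS against saline was -0.03 in place of -0.21, and that of let-7c-5p changed sign, to 0.01 (SE 0.10). MiR-98-5p, with the fewest reads per unit of exp, had -0.21 (SE 0.18) on exp and -0.29 (SE 0.22) on reads.

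Markers of neurons and brain and of other cell types were looked up, with no list made to tell the hippocampus from other brain regions. All 6 neuronal and brain miRNAs listed, miR-124-3p and miR-9-5p among them, had reads in every library, with a summed level of 107200 to 143356 CPM. The 5 choroid plexus miRNAs summed to 9167 to 28545 CPM with saline, 9187 to 21722 CPM with LPS and 11758 to 55131 CPM with LPS + GAS. Their sum was highest in replicate 1 of each group, and miR-1912-3p was at 0 in some libraries. Most of the sum was miR-204-5p (8994 to 51934 CPM). On CPM, replicate 1 was the highest library for 8 of 9 members in both the saline and LPS groups. By share of reads it was highest for 5 with saline and for 7 with LPS. In the LPS + GAS group replicate 1 was the lowest for 6 of 9 on CPM. On reads without scaling it was lowest there for only 2, and by share of reads for 3. The 4 ependymal miRNAs, of which miR-449c-5p was at 0 in some libraries, summed to 133 to 702 CPM with saline, 169 to 363 CPM with LPS and 188 to 1290 CPM with LPS + GAS. Their highest sum, in LPS + GAS replicate 1, came mostly from miR-34b-5p (517 CPM) and miR-34c-5p (725 CPM). MiR-449a-5p did not follow the sum, with 47.7 CPM in that library and 31.2 to 52.2 CPM over all 9. The 4 red blood cell miRNAs, with reads in all libraries, summed to 2025 to 4267, 2150 to 3241 and 4541 to 6175 CPM in the same order of groups. Nearly all of that sum was miR-451a (1966 to 6049 CPM). MiR-486a-5p overlapped between saline (40.2 to 49.3 CPM) and LPS + GAS (39.4 to 65.3 CPM). The 4 leukocyte miRNAs, likewise read in all libraries, summed to 4931 to 5325, 2569 to 6226 and 3679 to 5598 CPM, with the lowest value in LPS replicate 2. Nearly all of this sum was miR-150-5p (2547 to 6182 CPM). MiR-142a-5p had 7.06 to 23.9 CPM and was highest in LPS + GAS replicate 3, where the sum was lowest of its group and miR-223-3p had 14.2 CPM. The part of these levels in the family's values was not tested. In whole tissue, fewer cells of a type and less of a miRNA per cell cannot be told apart.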

How the data were processed

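Small RNA from the hippocampus was sequenced by the authors on the BGISEQ-500 platform. They deposited a table of read counts and exp values for each mature miRNA, with its sequence. The deposited counts are raw, while the way the exp values were made, whole numbers treated here as a score, was not given in the sources used here. The same holds for the aligner. The build in the submitters' processing notes is GRCm38.p6. Columns with the authors' group averages, log2 fold changes, p-values and q-values were not used.

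Samples were grouped by their labels. The 9 members, the lists of 3p arms, neighbouring miRNAs and cell type markers and the tests were chosen with earlier results of these data known. The miRNAs named are these members and lists and the 5 miRNAs with at least 100 CPM (176 compared) whose log2 CPM varied least against the family mean. The 628 of 1448 miRNAs that reached 10 reads in 3 or more libraries were fitted in R 4.3.3 with edgeR 4.0.16 (TMM, glmQLFit, glmQLFTest), all 9 libraries in a model with a mean per group, with Benjamini-Hochberg adjustment over the 628. TMM factors were 0.9138 to 1.19. The labels do not name the animals, so p-values measure the spread between these libraries. Alternatives were DESeq2 1.42.0 (size factors and Wald test), limma 3.58.1 (voom), other filters and scalings, robust fitting, the 2 groups alone, the exp values, the replicate number as a block and each library left out.

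Same-numbered libraries of LPS + GAS and saline deviated together from their group means over all miRNAs tested (r = 0.296, 0.329 and 0.370 for replicates 1 to 3), a pairing that rests on these correlations alone. For LPS and saline r was 0.317, 0.209 and -0.284, and for LPS + GAS and LPS -0.109, 0.0466 and -0.274. Over all comparisons, libraries with different numbers ranged from -0.617 (LPS replicate 1 with saline replicate 2) to 0.496 (LPS + GAS replicate 3 with LPS replicate 1). Between LPS + GAS and saline alone they ranged from -0.424 to 0.0432. Whether the numbers mark pairs is therefore not settled. In simulated counts for LPS vs saline with a log2 change of 2 the edgeR test recovered 187 of 196 changed miRNAs and called 3 of 420 unchanged ones. Changes as small as those fitted for the members (-0.29 to 0.16) were not simulated, so this recovery does not extend to them. Hairpins and their coordinates came from RefSeq (GRCm38.p6), with all 9 members matched, and host transcripts from GENCODE release M21.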

Additional observations from a re-analysis of the deposited data

How the results depend on the processing

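No alternative and no left-out library led to a call among the 9 members in any comparison (0 each time), and adjusted p-values over all alternatives were at least 0.988 for LPS vs saline, 0.777 for LPS + GAS vs LPS and 0.977 for LPS + GAS vs saline. On exp values the family's share was 19.8% with saline, 19.2% with LPS and 19.0% with LPS + GAS. Leaving out a library gave shares of 24.0% to 27.4%, 22.3% to 24.7% and 22.2% to 23.5% in the same order. With 3 libraries a group, the members' median standard error in LPS vs saline (0.21) was as large as their median change (-0.21). Library totals without TMM moved the median of all miRNAs in LPS vs saline from -0.045 to 0.055, and in LPS + GAS vs LPS from 0.0030 to -0.082. The cause of the sign changes below was not tested.

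In LPS + GAS vs LPS, let-7g-5p (-0.0049) changed sign with DESeq2 size factors (0.0027), scaling to reads outside the family (6.02e-05), no filter (0.0034), at least 50 reads (0.0029), the DESeq2 Wald test (0.0027) and voom (0.022), and library totals gave -0.010 for let-7a-5p and -0.015 for let-7c-5p. In LPS + GAS vs saline, let-7f-5p (-0.014) became 0.045 with DESeq2 size factors, 0.019 with library totals, 0.037 with no filter, 0.029 with at least 50 reads, 0.045 with the Wald test, 0.012 with voom and 0.043 on exp values. On exp values let-7c-5p was 0.012 for LPS vs saline, and for LPS + GAS vs saline it was 0.027. Without both saline and LPS replicates 2, added after seeing the data, LPS + GAS vs LPS gave -0.11 for let-7a-5p, -0.071 for let-7b-5p, -0.11 for let-7c-5p and -0.059 for let-7f-5p.

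With the replicate number as a block 0 members were called in each comparison and the members' median was -0.19 for LPS vs saline, 0.077 for LPS + GAS vs LPS and -0.15 for LPS + GAS vs saline. There let-7g-5p was at 0.032 in LPS + GAS vs LPS and let-7f-5p at 0.029 in LPS + GAS vs saline. The block changed no call.

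Leaving out each library in turn gave these ranges where a sign changed. In LPS vs saline they were -0.36 to 0.080 for let-7f-5p, -0.33 to 0.031 for let-7g-5p and -0.28 to 0.048 for let-7i-5p. In LPS + GAS vs LPS they were -0.097 to 0.17 for let-7a-5p, -0.060 to 0.15 for let-7b-5p, -0.11 to 0.16 for let-7c-5p, -0.12 to 0.11 for let-7d-5p, -0.12 to 0.079 for let-7e-5p, -0.051 to 0.35 for let-7f-5p, -0.17 to 0.14 for let-7g-5p and -0.20 to 0.076 for let-7i-5p. In LPS + GAS vs saline they were -0.29 to 0.010 for let-7a-5p, -0.29 to 0.032 for let-7b-5p, -0.28 to 0.0035 for let-7d-5p, -0.18 to 0.16 for let-7f-5p, -0.30 to 0.034 for let-7g-5p and -0.23 to 0.026 for miR-98-5p. For the log2 ratio of 5p to 3p reads, whose alternatives were also added after seeing the data, they were -0.19 to 0.45 for let-7d in LPS + GAS vs LPS, -0.56 to 0.087 for let-7d in LPS + GAS vs saline, -0.22 to 0.18 for let-7e in LPS + GAS vs LPS (0.011 on exp values), -0.61 to 0.066 for let-7i in LPS vs saline, -0.13 to 0.20 for let-7i in LPS + GAS vs LPS, -0.55 to 0.12 for let-7i in LPS + GAS vs saline and -0.32 to 0.16 for miR-98 in LPS vs saline.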

Other observations

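Among 176 other miRNAs with at least 100 CPM, those whose level varied least against the mean log2 CPM of the 9 members were miR-376c-3p, with an SD of the log2 ratio of 0.14 over the 9 libraries, miR-9b-3p (0.15), miR-872-5p (0.16), miR-384-3p (0.17) and miR-26a-5p (0.17). The median of the 176 was 0.35. The members themselves ranged from 0.02 for let-7c-5p to 0.15 for let-7f-5p, and since each of them is part of the mean it is compared with, their values are lower for that reason alone. By the deposited counts miR-9b-3p and miR-26a-5p were the most abundant miRNAs of all tested, at 114109 and 88513 CPM, above let-7c-5p. The aligner was not given in the sources used here, so how reads were assigned to them is not known. All these values come from the same 9 libraries and share their scaling.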
